A study of Mus musculus with 6 samples.

Results

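C-type lectins are receptors and secreted proteins that share a carbohydrate recognition fold, and Siglecs are receptors of the immunoglobulin superfamily that bind sialic acid. Among the genes sequenced from mouse RPE/choroid, 48 of 33924 were taken by gene symbol, as every symbol that begins with Clec and a digit, with Cd209 or with Siglec, and in addition Cd22 and Cd33. A minimum of 10 was set on the mean normalized count, which 36 members reached and 12 did not. The tissue came from 3 young and 3 aged C57BL/6J mice, described in the sample fields as male and in the study's methods as of both sexes, with no transgene or treatment in either group. Young mice were 1 to 2 months old, and aged mice were 20 to 24 months old by their sample titles and 22 to 24 months old by their age field. The study's methods place the young group slightly later in life than the sample fields do. Each sample held a pair of eyes, freed of the neural retina, with the pigmented tissue scraped away from the sclera, so RPE and choroid were taken as one.

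The study set out to compare the ages. For each gene the authors' table gives 1 mean normalized count over the 6 libraries of both ages, beside the authors' own comparison of the ages, which was not used here. It gives no value for a single library. The levels described here therefore stand for RPE/choroid of both ages together, with no SD between mice, and no aged-with-young comparison was made. As no spread was available, a difference in level between 2 genes has no test, and small differences in the order of the genes carry no weight.

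Many of these receptors sit on macrophages, dendritic cells, B cells and other leukocytes, where they read sugars on microbes, on dying cells and on healthy neighbours. Activating members signal through a tyrosine motif of their own or through the adaptors Fcer1g and Tyrobp. Inhibitory members carry motifs that recruit phosphatases such as Ptpn6. In the choroid, which is the vascular layer behind the RPE, resident macrophages, mast cells and endothelium are known sources of such transcripts.

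The mean normalized counts of all genes added up to 40816668, of which the 48 members held 27919, or 0.0684%. RPE markers were present, at 39.3 (Best1) to 335233 (Ttr) mean normalized counts per kilobase of the longest transcript. The 4 rod photoreceptor markers were at 4145 to 30177 and the 4 skeletal muscle markers at 8136 to 39379 per kilobase and were thus also present. Genes of other eye tissues were counted together with those of the RPE/choroid. Macrophage markers were at 512 (Mrc1) to 92625 (Lyz2) per kilobase. In such bulk tissue, few cells of a type and little RNA per cell cannot be told apart.

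Levels of the members spanned a wide range. Mean normalized counts above the minimum ran from 12.8 (Clec12b) to 6566 (Clec14a). Of the 36 members, 7 had mean normalized counts of 1000 or more, 14 lay between 100 and 1000 and 15 between 10 and 100. Their median was 158, against 668 for the 18479 genes of the table that reached the same minimum, which places it at percentile 27.4 of those genes. Above the value of 668 were 8 members. Set against all genes above 0, which were not cut at 10 as the members were, the same median of 158 was at percentile 47.4. That percentile is higher by construction. The leading 5, Clec14a, Clec7a, Clec2d, Clec11a and Clec4d, held 70.4% of the summed count of all 48 members. In this order they encode an endothelial glycoprotein, a receptor for beta-glucan, a ligand of an NK cell receptor, a secreted growth factor and a macrophage receptor.

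**Figure D1:**
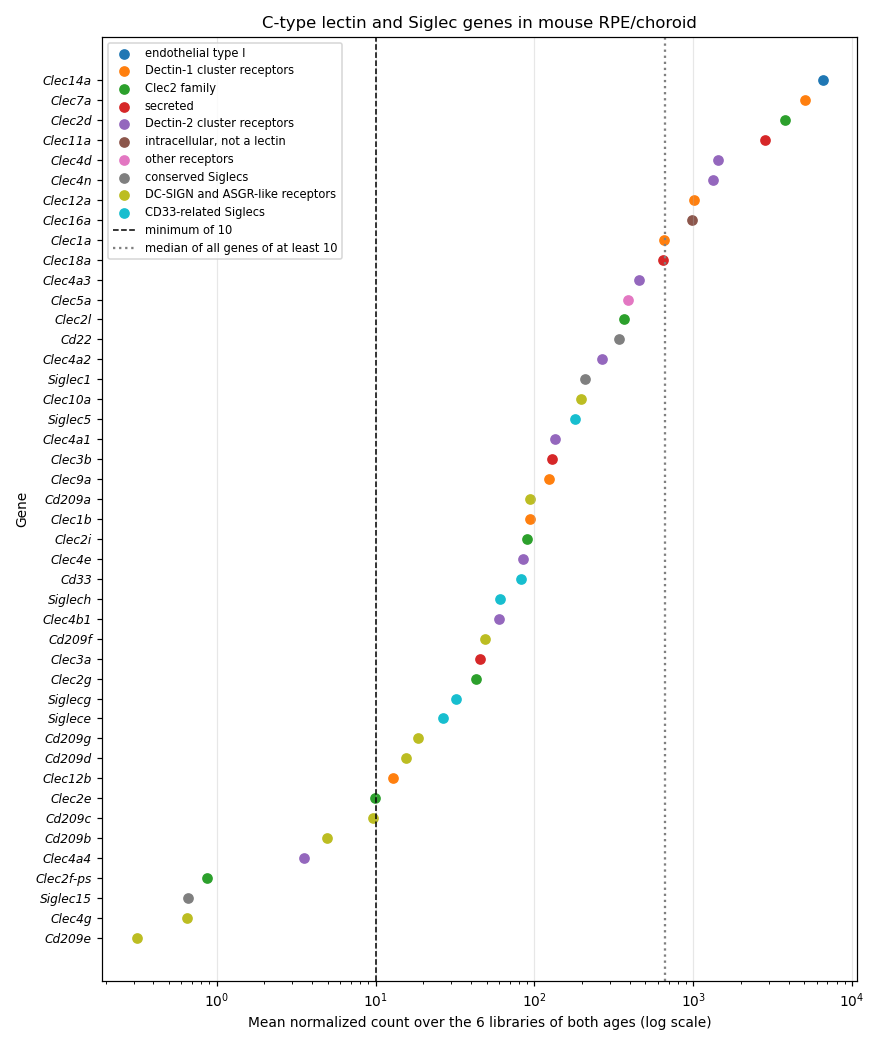
Mean normalized count of each member above 0 over the 6 libraries of both ages (x axis, log scale), 1 point per gene, coloured by role, with the minimum of 10 (dashed) and the median of all genes of at least 10 (dotted). Clec14a (6566), Clec7a (5028) and Clec2d (3764) lead, 8 points lie below 10, and the 4 members listed at 0 are not drawn.

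Long transcripts yield more reads, so levels of different genes were compared per kilobase of the longest annotated transcript. On this scale the median of the 36 members was 82.6 mean normalized counts per kilobase, at percentile 31.4 of the annotated genes that reached the minimum, and 10 members were above the median of those genes, 214. Clec2d (3103 per kilobase), Clec7a (2208), Clec14a (1437), Clec4d (1091) and Clec11a (955) were the first 5, with Clec4n close behind at 952. The order of the first 2 depended on the length used, since the ratio of Clec2d to Clec7a was 1.41 with the longest transcript, 0.912 with the mean transcript length and 0.882 with the coding length.

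The Dectin-1 cluster holds receptors for fungal sugars, platelet ligands and dead cells, encoded side by side on chromosome 6. Clec7a, which encodes Dectin-1, the beta-glucan receptor of macrophages, had the second highest mean normalized count of the members, 5028. It lies on the minus strand of GRCm38 at chr6:129461591-129472779, and the annotation classes it as a polymorphic pseudogene with protein-coding transcripts. Per kilobase Clec7a was at 2208, between the macrophage markers Csf1r (1217) and Cd68 (2493). Clec12a, an inhibitory receptor for uric acid crystals on myeloid cells, was at 313 per kilobase, so that Clec7a exceeded it 7.06-fold with the longest transcript and 5.44-fold with the coding length. Clec1a, known from endothelium and dendritic cells, was at 128 per kilobase. The remaining 3 genes of this cluster, Clec9a, Clec1b and Clec12b, were below 100 per kilobase.

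Clec9a, a receptor for exposed actin filaments on cross-presenting dendritic cells, had a mean normalized count of 124 and 37.7 per kilobase. Of 5 dendritic cell markers, Xcr1 (13.9) and Flt3 (28.1) were below Clec9a per kilobase, and Batf3 (51.3), Zbtb46 (118) and Itgax (356) were above it. Clec1b encodes Clec-2, the podoplanin receptor of platelets, and was at 93.4 mean normalized counts and 21.5 per kilobase. Per kilobase, the platelet markers were at 18.2 (Gp1bb), 25.2 (Gp9), 70.3 (Itga2b) and 840 (Pf4). Its ligand Pdpn was abundant, at 7673 per kilobase. Clec9a and Clec1b share 184 bases of exon on the same strand, 5.59% and 3.61% of their exon bases, so a read pair that lies wholly within this stretch fits both genes. Clec12b, an inhibitory relative of Clec12a, was lowest at 8.41 per kilobase.

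Clec7a and Clec1b both signal through a single tyrosine motif close to the start of the protein, known as hemITAM. The coding sequences are shown around their longest shared run, which covers the acidic residues just ahead of the tyrosine codon, with the run in capitals and up to 12 bases on either side in lower case. The run of 12 bases lies at coding bases 30 to 41 of Clec7a and 6 to 17 of Clec1b, counted from the A of the start codon.
Clec7a: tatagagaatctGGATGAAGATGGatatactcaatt
Clec1b: atgcaGGATGAAGATGGgtatatcacttt
Over 637 aligned coding bases both genes were identical at 61.2%, and no word of 31 bases was shared, so no word of that length tied their counts together.

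Dectin-2 cluster genes encode short-tailed activating receptors that pair with Fcer1g and, beside them, inhibitory receptors with a motif of their own. Of 9 such members on chromosome 6, 7 reached the minimum, with a median of 266 mean normalized counts. Clec4d, also known as MCL, a receptor for mycobacterial glycolipid, had 1443 mean normalized counts and lies on the plus strand at chr6:123262111-123275265. Clec4n, which encodes Dectin-2, the mannan receptor, had 1336 and is its neighbour on the same strand at chr6:123229843-123247021. Per kilobase these were 1091 and 952, a ratio of 1.15, and with no replicate error the pair cannot be ordered. Clec4e, the next gene along, encodes Mincle, a glycolipid receptor that pairs with Clec4d, and had 84.9 mean normalized counts (17.7 per kilobase). Clec4d exceeded Clec4e 61.7-fold per kilobase of the longest transcript and 16.6-fold per kilobase of coding sequence, as the longest Clec4e transcript has 4804 bases against 642 coding bases.

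The DCIR genes, which include inhibitory receptors of dendritic cells and macrophages, were led by Clec4a3 at 457 mean normalized counts (352 per kilobase). Clec4a2, which encodes DCIR1, followed at 266 (107 per kilobase) and Clec4a1 at 135 (86.7 per kilobase). Clec4a4, which encodes DCIR2, had 3.53 and was below the minimum. Clec4b1, of the activating DCAR kind, had 60.2 (80.5 per kilobase), and Clec4b2 was listed at 0. Clec5a, an activating receptor of myeloid cells that pairs with Tyrobp, is encoded elsewhere on chromosome 6 and had 387 mean normalized counts (103 per kilobase).

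**Figure D2:**
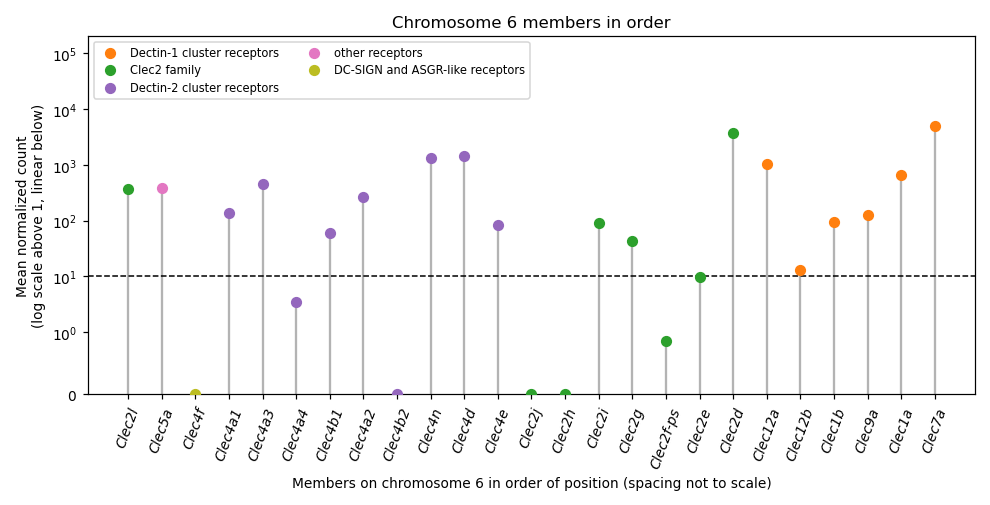
Mean normalized count (y axis, log scale above 1 and linear below) of the 25 members on chromosome 6 in order of position (x axis, spacing not to scale), coloured by role, with the minimum of 10 dashed. Genes with high and low counts stand side by side, such as Clec4n (1336) and Clec4d (1443) between Clec4b2 (0) and Clec4e (84.9), and Clec7a (5028) stands at the end of the row.

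Chromosome 6 carried 25 of the 48 members and 55.1% of their summed count, and 18 of the 25 reached the minimum. All 4 members listed at 0 were on this chromosome, namely Clec4f, Clec4b2, Clec2j and Clec2h. Neighbours could differ widely per kilobase, as Clec2e (4.70) and Clec2d (3103) did.

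The Clec2 family encodes Clr proteins, several of which are ligands of NKR-P1 receptors on NK cells. Clec2d, or Clr-b, a broadly expressed ligand that restrains NK cells, had 3764 mean normalized counts and was the member with the most counts per kilobase, 3103. It lies on the plus strand at chr6:129180615-129186534. The other family members of the NK gene cluster were far lower, with Clec2i at 89.9 mean normalized counts (32.5 per kilobase) and Clec2g at 43.2 (17.5 per kilobase). Per kilobase Clec2d exceeded Clec2i 95.4-fold with the longest transcript and 49.8-fold with the coding length. Clec2l, a member known from brain and encoded apart from the cluster, had 369 mean normalized counts (258 per kilobase). Clec2e (9.88) and Clec2f-ps (0.864) were below the minimum, and Clec2h and the pseudogene Clec2j were listed at 0. Klrb1b, a receptor for Clec2d, was at 21.4 per kilobase, and the 4 NK cell markers ranged from 6.65 (Ncr1) to 34.8 (Klrk1).

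Clec14a encodes a type I membrane glycoprotein of endothelium that takes part in vessel sprouting. Its single transcript lies on the minus strand at chr12:58264720-58269290 and had 6566 mean normalized counts, percentile 93.8 of the genes that reached the minimum. Per kilobase it was at 1437, among the endothelial markers Cdh5 (179), Tie1 (767), Pecam1 (915), Kdr (1244) and Emcn (2251). Relatives of the same domain family outside the symbol rule were also abundant, with Thbd, or thrombomodulin, at 1044 and Cd93 at 404 per kilobase.

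Of the 4 secreted members, Clec11a was highest. It encodes a growth factor for bone and blood progenitor cells, lies on the minus strand at chr7:44302687-44306902, and had 2845 mean normalized counts (955 per kilobase). Clec18a, a secreted lectin that binds polysaccharide, had 647 (241 per kilobase). Clec3b, or tetranectin, a plasminogen-binding protein of plasma and matrix, had 130 (131 per kilobase), and its cartilage relative Clec3a had 45.2 (76.5 per kilobase). Clec16a carries the name of the family but encodes an intracellular regulator of mitophagy with no lectin fold, and had 986 mean normalized counts (158 per kilobase).

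The genes of DC-SIGN type and their kin were sparse, and 5 of 10 reached the minimum. Clec10a, which encodes MGL1, a receptor for galactose and N-acetylgalactosamine on macrophages, led with 198 mean normalized counts (84.8 per kilobase). Its close relative Mgl2, which the symbol rule does not take in, was at 185 per kilobase. Among the Cd209 genes, encoded in a row on chromosome 8, Cd209a, the gene named DC-SIGN in mouse, was highest with 94.2 mean normalized counts. Per kilobase Cd209a was at 63.6, Cd209f at 31.8, Cd209d at 17.0 and Cd209g at 5.43. The mean normalized counts of Cd209c (9.71), Cd209b (4.93) and Cd209e (0.314) lay below the minimum. Cd209b encodes SIGN-R1, known from macrophages of the splenic marginal zone. Clec4g (0.646), which encodes LSECtin of liver sinusoids, was near 0, and Clec4f, a receptor of Kupffer cells, was listed at 0.

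Of the 8 Siglecs 7 reached the minimum. Cd22, an inhibitory Siglec of B cells and microglia, was highest with 343 mean normalized counts (86.3 per kilobase), on the minus strand at chr7:30865402-30880342. The B cell markers Ms4a1 (56.0), Cd79a (15.3) and Pax5 (0.956) were below it per kilobase, and which cells gave the Cd22 counts was not tested. The gene Gm29439 lies on the opposite strand over 479 bases of the Cd22 exons. Siglec1, the sialoadhesin of macrophages, had 209 mean normalized counts, and its transcript of 6387 bases brought it to 32.8 per kilobase. Cd22 exceeded Siglec1 by 2.63-fold to 4.02-fold, depending on the length used.

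CD33-related Siglecs, which mostly carry inhibitory motifs, reached the minimum in 5 of 5 members. The symbol Siglec5 is an older name that the reference lists for both Siglecf and Siglece, and as Siglece has a line of its own, the values of Siglec5 are read here as those of Siglecf. Siglec5 had 180 mean normalized counts (69.2 per kilobase), Cd33 had 82.2 (14.3), Siglech 60.9 (26.5), Siglecg 32.3 (8.10) and Siglece 26.7 (14.4). Siglec-F is known from eosinophils and alveolar macrophages. The 4 eosinophil markers were below it, with Epx at 0.183, Il5ra at 1.98, Ccr3 at 2.42 and Prg2 at 13.8 per kilobase. Siglech, a marker of plasmacytoid dendritic cells and microglia, lay at 26.5 per kilobase, above Runx2 and below Ly6d (64.7), Tcf4 (498) and Bst2 (8448), the 4 markers of the former. Siglec15, known from osteoclasts, had a mean normalized count of 0.659, while the osteoclast markers Acp5 (626) and Ctsk (2972) were high per kilobase and Calcr (2.93) was low.

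**Figure D3:**
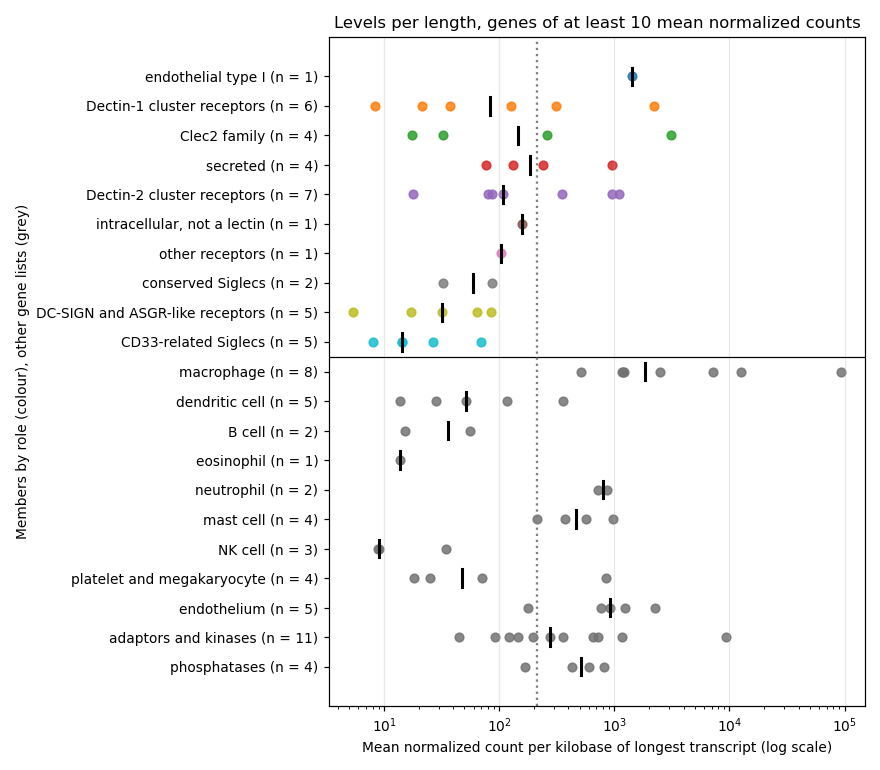
Mean normalized count per kilobase of the longest transcript (x axis, log scale) of members by role (colour) and of marker and signalling genes (grey), genes of at least 10 mean normalized counts, 1 point per gene, black bars at medians, dotted line at the median of all annotated genes that reached this minimum (214). The CD33-related Siglecs sit between 8.10 and 69.2, below the macrophage markers (512 to 92625).

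Adaptors and enzymes known to act downstream of such receptors were looked up by list. Each of the 11 adaptor and kinase genes reported reached the minimum, with a median of 275 mean normalized counts per kilobase. The planned list held a further gene that is not reported here. Tyrobp was at 9399 and Fcer1g at 1157 per kilobase, beside 1091 for Clec4d and 952 for Clec4n, and Hcst was at 198. Downstream of Dectin-1, Bcl10 was at 717, Malt1 at 121 and Card9 at 91.9 per kilobase. All 4 phosphatase genes were expressed, with Ptpn11 at 815, Ptpn6 at 601, Inppl1 at 425 and Inpp5d at 167 per kilobase.

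Genes for the ligand of Siglecs were also read. The 6 genes of sialic acid synthesis had 388 to 3487 mean normalized counts, led per kilobase by Slc35a1 (1710), the transporter of activated sialic acid into the Golgi, and by Cmas (905), which activates it. Cmah, which makes the N-glycolyl form that mouse Siglecs often prefer, was at 39.6 per kilobase. Of 20 sialyltransferases, 19 reached the minimum. Among those with an annotated length, St3gal4 led per kilobase at 2929, and St6gal1, which makes the ligand of Cd22, was at 904. St6galnac2, with 1970 mean normalized counts, was not matched to the annotation and has no value per kilobase. The sialidase Neu1 of lysosomes was at 835 per kilobase, and Neu4, with a mean normalized count of 2.02, was below the minimum.

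Lectins of the same folds with other symbols gave a scale for the members. Of 29 such genes, 22 reached the minimum and Colec10 was listed at 0. Cd302 (2131 per kilobase), Colec12 (1565), a scavenger receptor, and Thbd (1044) were above Clec11a, the fifth member per kilobase, at 955. The mannose receptor Mrc1 was at 512, Mrc2 at 521 and Mag, the Siglec of myelin, at 90.5 per kilobase. The gene now named Clec2m appears in the table under the older symbol 4922502D21Rik, at 0.348 mean normalized counts, and was not counted as a member.

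Several members have close copies, which bears on how far their counts can be trusted. The share of a gene's words of 31 bases that occur in no other annotated gene, called here its own sequence, was at least 95% in 26 of the 36 members above the minimum and under 90% in 9. It was 100% for Clec14a, Clec11a and Clec4d and 99.4% for Clec7a. Cd209f was lowest with 63.7%, and 760 of its words recur in Cd209g, whose own sequence was 79.9%. Clec4b1 had 81.0%, Clec10a 85.2%, Clec2g 86.3%, Clec2d 88.2%, Clec2i 88.7%, Clec4a2 89.1% and Cd22 89.3%. For Cd22 most of the shared words lie in Gm29439, which is encoded on the opposite strand. Own sequence counts words on either strand, so it takes no account of a stranded library, and whether strand kept such reads apart was not tested. Below the minimum, Cd209c (75.3%) and Clec4a4 (79.0%) shared most.

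**Figure D4:**
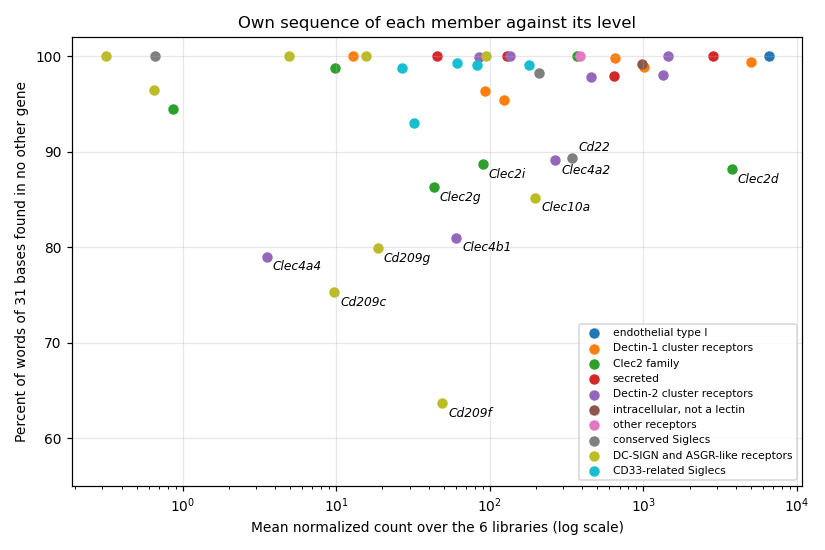
Own sequence of each member as a percent of its words of 31 bases (y axis, from 55) against its mean normalized count (x axis, log scale), 1 point per member above 0, coloured by role, with names where the percent is under 90. Cd209f (63.7%) and Cd209c (75.3%) are lowest, and Clec14a, Clec4d and Clec11a are at 100%.

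The coding stretches in which a pair is identical are printed for 5 pairs of close relatives. Capitals mark the longest run that both genes share without a difference, and lower case the flanks of up to 12 bases. Positions count from the A of the start codon. For Cd209f and Cd209g (chr8:4102787-4105835 and chr8:4134098-4137707), the run spans 178 bases, from base 184 of Cd209f and from the first base of Cd209g.
Cd209f: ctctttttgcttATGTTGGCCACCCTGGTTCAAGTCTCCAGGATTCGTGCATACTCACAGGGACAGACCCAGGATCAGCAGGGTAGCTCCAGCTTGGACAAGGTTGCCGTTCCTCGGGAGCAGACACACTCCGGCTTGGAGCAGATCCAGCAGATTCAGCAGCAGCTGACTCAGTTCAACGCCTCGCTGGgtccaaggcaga
Cd209g: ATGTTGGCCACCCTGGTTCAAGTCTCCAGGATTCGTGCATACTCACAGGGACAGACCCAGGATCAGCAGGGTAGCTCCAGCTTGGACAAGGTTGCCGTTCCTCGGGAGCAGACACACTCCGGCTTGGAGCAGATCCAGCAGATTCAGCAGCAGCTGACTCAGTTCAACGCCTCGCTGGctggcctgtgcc
With 89.2% identity over 582 aligned bases, the 48.9 and 18.6 mean normalized counts of this pair may each hold counts of the other, and their order is uncertain.

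Clec4a2 (chr6:123106428-123143999) and Clec4a4 (chr6:122990367-123024105) share 163 coding bases, at positions 75 to 237 of both genes. The pair is shown because their levels, 266 and 3.53 mean normalized counts, lie far apart in spite of it.
Clec4a2: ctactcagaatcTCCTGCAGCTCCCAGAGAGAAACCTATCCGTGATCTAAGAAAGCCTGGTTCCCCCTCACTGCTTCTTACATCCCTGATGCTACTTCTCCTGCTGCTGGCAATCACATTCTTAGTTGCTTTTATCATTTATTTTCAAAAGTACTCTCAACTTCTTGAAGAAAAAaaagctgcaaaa
Clec4a4: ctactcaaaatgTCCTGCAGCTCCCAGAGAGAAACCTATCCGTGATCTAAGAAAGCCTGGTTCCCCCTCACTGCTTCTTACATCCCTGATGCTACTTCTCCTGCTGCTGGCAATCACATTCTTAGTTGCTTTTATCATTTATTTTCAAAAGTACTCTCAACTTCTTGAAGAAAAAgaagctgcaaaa
Identity was 85.7% over 708 aligned coding bases. Own sequence was 89.1% for Clec4a2 and 79.0% for Clec4a4.

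Clec4b1 (chr6:123049962-123071555) matched Clec4a2 more closely than its namesake Clec4b2, with 87.1% against 81.5% identity of aligned coding bases. The longest run of 82 bases lies at positions 399 to 480 of Clec4b1 and 558 to 639 of Clec4a2, in the part that encodes the lectin domain.
Clec4b1: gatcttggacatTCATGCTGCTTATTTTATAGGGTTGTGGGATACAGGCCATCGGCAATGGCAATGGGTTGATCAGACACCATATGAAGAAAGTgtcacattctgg
Clec4a2: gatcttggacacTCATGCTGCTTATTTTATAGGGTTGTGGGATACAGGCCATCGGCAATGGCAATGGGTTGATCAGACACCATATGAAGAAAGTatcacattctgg
The mean normalized counts were 60.2 for Clec4b1 and 266 for Clec4a2, and 18.3% of the words of Clec4b1 recur in Clec4a2, so its count is an uncertain one.

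Clec2d and Clec2i (chr6:128887588-128898167) were 88.3% identical over 615 aligned coding bases, and their longest run has 58 bases.
Clec2d: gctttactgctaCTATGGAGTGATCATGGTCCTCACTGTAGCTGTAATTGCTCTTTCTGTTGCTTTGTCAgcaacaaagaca
Clec2i: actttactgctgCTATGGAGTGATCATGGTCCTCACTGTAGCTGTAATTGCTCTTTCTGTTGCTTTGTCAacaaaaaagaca
Clec2d had 3764 and Clec2i 89.9 mean normalized counts, and 5.75% of the words of Clec2d recur in Clec2i. Whether reads of Clec2d entered the Clec2i count was not tested.

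Clec10a (chr11:70156197-70170834) and Mgl2 were 90.4% identical over 910 aligned coding bases, with a run of 183 bases at positions 502 to 684 of Clec10a and 550 to 732 of Mgl2.
Clec10a: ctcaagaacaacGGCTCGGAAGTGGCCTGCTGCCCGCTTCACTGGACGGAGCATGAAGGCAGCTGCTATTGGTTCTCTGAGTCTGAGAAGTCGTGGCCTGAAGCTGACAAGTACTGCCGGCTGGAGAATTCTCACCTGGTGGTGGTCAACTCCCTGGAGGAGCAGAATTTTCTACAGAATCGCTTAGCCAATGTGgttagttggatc
Mgl2: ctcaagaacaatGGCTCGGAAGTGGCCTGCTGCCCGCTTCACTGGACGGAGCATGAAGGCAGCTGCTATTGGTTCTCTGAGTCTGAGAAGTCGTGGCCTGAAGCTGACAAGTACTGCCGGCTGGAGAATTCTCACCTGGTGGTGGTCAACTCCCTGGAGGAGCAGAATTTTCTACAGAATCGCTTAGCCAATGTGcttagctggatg
Clec10a had 198 and Mgl2 303 mean normalized counts. Other relatives were less alike, such as Clec4d and Clec4e (62.9% identity), Clec4d and Clec4n (61.0%), and Clec12a and Clec12b (60.4%), and their longest shared runs had 9 or 10 bases.

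Just inside the minimum of 10 was Clec12b (12.8), and just outside were Clec2e (9.88) and Cd209c (9.71). The 8 members below the minimum and above 0 can be read as whole units, since the lowest values in the table fall on 6 steps between 0.157 and 0.174, each 1 unit in 1 of the 6 libraries. On this scale Cd209e had 2 units over all libraries, Siglec15 and Clec4g 4 each, Clec2f-ps 5, Clec4a4 21 to 22 and Cd209b 29 to 31. The minimum was reached by 54.5% of all genes and by 75.0% of the members.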

How the data were processed

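Paired-end RNA-seq covered RPE/choroid from 3 young and 3 aged mice. The libraries were depleted of rRNA and selected for poly(A), and the protocol field describes only the rRNA removal and a stranded total RNA kit. The authors trimmed reads with BBDuk, used STAR with Ensembl transcripts of GRCm38, and scaled Sailfish estimates by total counts. The deposited mean normalized count is a signal that the authors averaged over the libraries of both ages. Further columns of the deposited table hold the authors' own comparison of the ages (log2 fold change, standard error, statistic, p-value and adjusted p-value) and were not used. With no values per library, the planned test was not run, the depth of each library is unknown, and no interval was computed.

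The authors' methods name TPM as the step before the counts. The median mean normalized count rose from 178 in the tenth of genes with the shortest transcripts to 1039 in the tenth with the longest. The values were therefore taken as not yet divided by length, and the levels per kilobase rest on this. The rise covers genes of all types, which may differ in level for other reasons, so it cannot settle the point by itself. Lengths, positions and sequences came from GENCODE M21 (GRCm38), a later annotation than the authors used. It matched 97.0% of genes of at least 10 mean normalized counts and all 48 members, by symbol or by a RefSeq synonym of the 1 gene with no line of its own in the table. Own sequence used words of 31 bases, with words of 50 as an alternative added after seeing the data, on either strand of every transcript. It was tested on simulated sequences. Coding sequences were aligned globally.

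All members of at least 10 are named. Of the B cell marker list, 1 gene is not reported here. The pairs printed were picked after their shared words were seen. Members, role groups and gene lists were chosen with earlier results of these data known. Tools were Python 3.11.15 with numpy 2.4.6, pandas 2.3.3 and matplotlib 3.10.9.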

Additional observations from a re-analysis of the deposited data

How the results depend on the processing

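No paired analysis was possible because each gene has 1 mean over all 6 libraries. Hence the edgeR and DESeq2 fits, the filter on low counts, the replicate block and leaving out each replicate were not run. The raw depth of each library is unknown. For the low members, the smallest step that can be read is 1 unit in 1 library, at 0.157 to 0.174.

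With other minimums 28 to 44 members were counted in place of 36. The leading 5 members held 70.4% to 71.1% of the summed count. The median of the members was 158 with the minimum of 10, 305 with a minimum of 50 and 93.8 with none, by the construction of the cut. The percentile of the members' median was 27.4 among genes of at least 10 and 47.4 among all genes above 0, since that adds low genes. The order of the members per kilobase had a rank correlation over 36 genes with the order by longest transcript of 0.98 with mean transcript length, 0.93 with coding length and 0.93 with no length correction. Of the leading 5 per kilobase 4 stayed with mean transcript length and 5 with the other lengths. Words of 50 bases, chosen after seeing the data, gave 30 members with at least 95% own sequence in place of 26. Own sequence was then 70.2% for Cd209f and 98.0% for Clec2d.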
